A study of Rattus norvegicus with 12 samples.

Results

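The genes described here are 10 endothelial junction and receptor markers: Pecam1, Cdh5, Esam and Cldn5 at cell contacts, the receptors Eng, Tek and Tie1, the enzyme Nos3, and the secreted proteins Vwf and Egfl7. They were chosen by name, as every probe set whose single gene symbol was 1 of these 10. Of the 10 genes, 9 had a probe set, 10 probe sets in all out of 31042 that were not controls, and Egfl7 had 2 of them. Cdh5, VE-cadherin, was not analysed here. All 10 probe sets passed the filter on dim signal (a mean over all arrays of at least 4.91 log2), so 9 of 10316 tested genes are members. The tissue was the papillary muscle of the right ventricle, a strand of working myocardium that tethers the tricuspid valve, from 12 adult male LBNF1 rats with 1 muscle per animal. Labelled ages, with no unit given, were 75 for all 3 low-low animals, 78 to 85 with both inputs high, 72 to 81 with high stretch alone and 75 to 84 with high shortening alone. Each muscle was paced at 1 Hz for 12 h at 37 °C in oxygenated culture medium. Mean stretch was targeted at 16% (high) or 4% (low) of slack length and cyclic shortening at 16% (high) or 4% (low), which gave 4 groups of 3 muscles. No muscle kept uncultured or unstimulated is among the 12, and cultured muscle has no blood flow, so every group shares the culture. The study asked which genes respond to stretch, to shortening or to both.

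Endothelial cells line every blood vessel and, in the heart, the dense capillary bed between the muscle cells. Their contacts are held by adherens and tight junctions and by immunoglobulin-type adhesion proteins such as Pecam1 and Esam. Angiopoietins act on the receptor Tek (Tie2), with Tie1 as its partner, to keep vessels quiescent and sealed, while endoglin is a co-receptor for BMP9 and BMP10 together with ALK1. Nos3 makes nitric oxide, Vwf is stored in Weibel-Palade bodies and released to bind platelets, and Egfl7 is a matrix-bound protein made by endothelium. In whole muscle, fewer endothelial cells and less RNA per endothelial cell cannot be told apart.

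Many endothelial promoters carry binding sites for ETS factors. RefSeq promoters (assembly GRCr8, 250 bases before to 50 after the transcript start) were found for 5 of the 9 measured members, with 6 windows, and 5 are printed, the first of each gene, because 3 of these genes were higher in 1 group and the other 2 did not pass the test. Each line is written 5′ to 3′ on the strand of the gene, and capitals mark the ETS-type letters AGGAAG or their reverse complement CTTCCT, searched on both strands. The windows are chr3:36332029-36332328 (plus strand) for Eng, chr4:11706532-11706831 (minus strand) for Nos3, chr5:137304932-137305231 (minus strand) for Tie1, chr11:95718549-95718848 (minus strand) for Cldn5 and chr3:29805381-29805680 (plus strand) for Egfl7.
Eng: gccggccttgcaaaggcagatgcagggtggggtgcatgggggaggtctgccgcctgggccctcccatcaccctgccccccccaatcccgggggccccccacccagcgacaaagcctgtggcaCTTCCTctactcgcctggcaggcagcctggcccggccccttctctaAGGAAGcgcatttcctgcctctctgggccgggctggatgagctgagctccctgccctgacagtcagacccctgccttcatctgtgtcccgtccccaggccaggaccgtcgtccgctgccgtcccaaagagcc
Nos3: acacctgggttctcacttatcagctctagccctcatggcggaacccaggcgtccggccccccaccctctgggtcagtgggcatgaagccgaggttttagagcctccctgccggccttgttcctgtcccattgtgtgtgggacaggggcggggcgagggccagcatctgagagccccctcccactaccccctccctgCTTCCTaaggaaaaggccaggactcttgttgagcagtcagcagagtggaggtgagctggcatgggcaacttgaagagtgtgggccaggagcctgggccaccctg
Tie1: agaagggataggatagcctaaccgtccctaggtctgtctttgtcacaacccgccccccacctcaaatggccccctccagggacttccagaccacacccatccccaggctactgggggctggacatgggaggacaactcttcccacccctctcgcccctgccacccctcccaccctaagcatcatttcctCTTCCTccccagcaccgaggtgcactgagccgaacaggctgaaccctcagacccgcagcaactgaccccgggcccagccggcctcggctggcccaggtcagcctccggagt
Cldn5: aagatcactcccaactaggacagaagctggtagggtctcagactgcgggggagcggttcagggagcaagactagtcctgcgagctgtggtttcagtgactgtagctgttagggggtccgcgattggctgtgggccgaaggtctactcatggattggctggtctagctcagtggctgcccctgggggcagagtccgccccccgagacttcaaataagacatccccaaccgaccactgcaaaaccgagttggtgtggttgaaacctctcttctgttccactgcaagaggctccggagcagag
Egfl7: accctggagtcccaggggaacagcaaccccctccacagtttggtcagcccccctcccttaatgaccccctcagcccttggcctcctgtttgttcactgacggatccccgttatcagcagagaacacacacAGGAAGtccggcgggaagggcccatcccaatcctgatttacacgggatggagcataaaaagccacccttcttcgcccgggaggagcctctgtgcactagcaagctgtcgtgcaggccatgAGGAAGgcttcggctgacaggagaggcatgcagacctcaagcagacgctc
The letters occurred 2 times in the Eng window, at 128 and 82 bases before the start. They occurred 1 time in the Nos3 window and 1 time in the Tie1 window, at 54 and 61 bases before the start, and 0 times in the Cldn5 window. The Egfl7 window, of a gene that did not pass, held them 2 times, at 120 bases before the start and at the start itself, and a further Egfl7 window, not printed, held them 0 times. Of 33469 promoters of the same length, 34.5% held them, so such a match is common and is given as a description of the sequence only.

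The 3 muscles with low stretch and low shortening, called the low-low group below, stood apart from the other 9 across the whole array. Pearson's r over all probe sets, which are not independent replicates, was 0.951 to 0.962 between a low-low array and any other. It was 0.991 to 0.993 within the low-low group and 0.984 to 0.996 within the remaining 9. The 3′ to 5′ index is the mean excess of the 3′ over the 5′ signal in the Gapdh and Actb control probe sets, in log2, and it is larger where fewer labelled molecules reach the 5′ end. The low-low muscles had an index of 1.36 ± 0.29 (SD, n = 3, range 1.13 to 1.69) and the others of 3.31 ± 0.51 (SD, n = 9, range 2.56 to 4.33). The labelled weights of the low-low animals, with no unit given, lay between 305 and 318, and those of the other animals between 267 and 297. Neither range overlaps, so index, weight and the low-low group cannot be told apart in these data, and their part in the differences below was not tested separately from the group. Median log2 intensity was 5.52 to 5.57 on all 12 arrays. With 3 arrays per group, the median half-width of the 95% interval of a difference between 2 groups was 0.33 log2 (1.26-fold) over all tested genes. Most markers were known less closely than that. Among the markers the SE of such a difference ran from 0.15 log2 in Tie1 to 0.36 in Vwf.

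Against the mean of the other 3 groups, 5 of the 9 markers were higher in the low-low group, 1 was lower and 3 did not pass the test. Eng was 3.23-fold higher, Nos3 2.76-fold, Esam 2.27-fold, Pecam1 2.05-fold and Tie1 1.86-fold, while Tek was 1.62-fold lower. Cldn5, Vwf and Egfl7 did not pass. These calls are from limma with Benjamini-Hochberg adjustment over 10316 genes at a threshold of 0.05. In the same comparison 57.6% of all tested genes passed, 29.4% as higher and 28.2% as lower. A count of 6 of 9 is near that share, and the split of 5 higher to 1 lower is read beside those of 29.4% and 28.2%. The median difference of the markers was 0.90 log2, against -0.02 log2 over all genes.

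**Figure D1:**
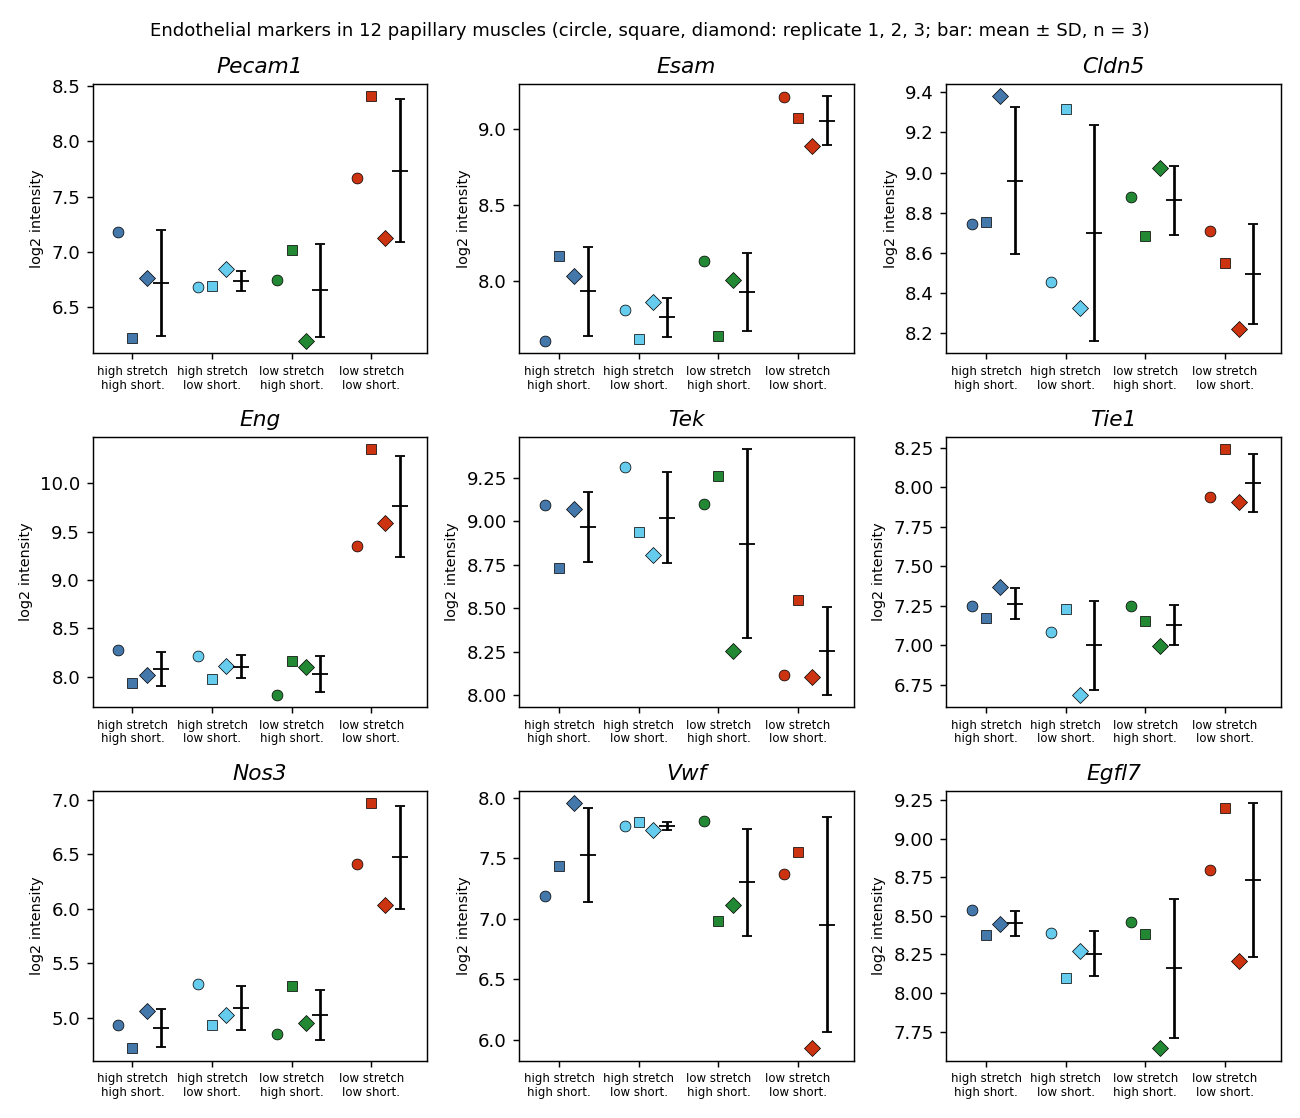
Log2 intensity (vertical axis, a separate scale for each gene) of the 9 measured endothelial markers in the 4 groups of muscles, where short. stands for cyclic shortening. Circles, squares and diamonds are replicates 1, 2 and 3, and bars are the mean ± SD (n = 3). The 3 low-low muscles lie above all 9 others for Esam, Eng, Tie1 and Nos3, and overlap them for the other 5 genes.

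Among the proteins of cell contacts, 2 of 3 were higher in the low-low group. Esam (chromosome 8), an adhesion molecule of endothelial tight junctions, separated the low-low muscles from all others. In replicate order, Esam read 9.21, 9.07 and 8.89 log2 in the low-low group, 7.60, 8.17 and 8.03 with both inputs high, 7.81, 7.62 and 7.86 with high stretch alone, and 8.13, 7.64 and 8.01 with high shortening alone. All 3 low-low muscles lay above the highest of the other 9, and the 3 other groups overlapped. The difference was 1.18 log2 (SE 0.14, adjusted p = 1.55e-05, limma).

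Pecam1 (chromosome 10), the platelet and endothelial adhesion molecule at endothelial contacts, was higher on average but less evenly so. It read 7.67, 8.41 and 7.12 log2 in the low-low group, 7.18, 6.22 and 6.76 with both inputs high, 6.68, 6.69 and 6.84 with high stretch alone, and 6.75, 7.02 and 6.19 with high shortening alone. The lowest low-low muscle, replicate 3, lay just under the highest of the others, so the sets overlapped. Pecam1 differed by 1.03 log2 (SE 0.26, adjusted p = 0.00432, limma), and by 0.69 to 1.34 log2 with any 1 array left out. With labelled weight as a covariate Pecam1 gave -0.15 log2 (adjusted p = 0.776), and with the index 1.37 log2 (adjusted p = 0.229).

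Cldn5 (chromosome 11), the claudin that seals endothelial tight junctions, did not follow them. Its low-low values of 8.71, 8.55 and 8.22 log2 lay within or just below the others, which ran from 8.33 to 9.38 with a median of 8.75. Replicate 2 with high stretch alone (9.32) and replicate 3 with both inputs high (9.38) stood above the other Cldn5 values. The difference of -0.35 log2 (SE 0.21, 95% interval -0.80 to 0.10, adjusted p = 0.171) did not pass in limma.

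Of the receptors, Eng and Tie1 were higher and Tek was lower in the low-low group. Eng (chromosome 3), endoglin, had the largest difference among the 9 markers. Its low-low values were 9.35, 10.35 and 9.59 log2, against 8.28, 7.94 and 8.02 with both inputs high, 8.22, 7.98 and 8.11 with high stretch alone, and 7.82, 8.16 and 8.10 with high shortening alone. The 9 other muscles spanned less than the gap to the lowest low-low muscle. Eng differed by 1.69 log2 (SE 0.18, adjusted p = 5.64e-06, limma), and by 1.40 to 1.90 log2 with any 1 array left out.

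The 2 TIE receptors moved in opposite directions. Tie1 (chromosome 5), the partner receptor that modulates Tek, read 7.94, 8.24 and 7.91 log2 in the low-low group. It read 7.25, 7.17 and 7.37 with both inputs high, 7.08, 7.23 and 6.69 with high stretch alone, and 7.25, 7.15 and 6.99 with high shortening alone. No other muscle reached the low-low values of Tie1. The difference was 0.90 log2 (SE 0.12, adjusted p = 5.65e-05, limma). Tek (chromosome 5), the angiopoietin receptor itself, read 8.11, 8.55 and 8.10 log2 in the low-low group, 9.10, 8.73 and 9.07 with both inputs high, 9.31, 8.94 and 8.81 with high stretch alone, and 9.10, 9.26 and 8.25 with high shortening alone. Replicate 3 with high shortening alone lay among the low-low muscles, so the Tek ranges overlapped. Tek differed by -0.70 log2 (SE 0.20, adjusted p = 0.00922, limma). Neither TIE receptor passed once the index was a covariate, at 0.75 log2 for Tie1 (adjusted p = 0.166) and -1.12 for Tek (adjusted p = 0.194), nor did Tie1 once weight was (0.64 log2, adjusted p = 0.0635).

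Nos3 (chromosome 4), the endothelial nitric oxide synthase, was clear of the authors' intensity cut of 50 (5.64 log2) only in the low-low group. Nos3 read 6.42, 6.97 and 6.03 log2 there, 4.93, 4.72 and 5.06 with both inputs high, 5.31, 4.93 and 5.03 with high stretch alone, and 4.85, 5.29 and 4.95 with high shortening alone. All 3 low-low muscles and 0 of the other 9 exceeded that cut, while the mean of the other 9 (5.01 log2) was still above the filter used here. The difference was 1.47 log2 (SE 0.17, adjusted p = 1.72e-05, limma), and 1.44 log2 with values under the filter of 4.91 log2 raised to it. With the index as a covariate Nos3 gave 1.51 log2 with an adjusted p of 0.0605.

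The 2 secreted proteins did not pass the test, and both varied most within the low-low group. Vwf (chromosome 4), von Willebrand factor, read 7.37, 7.55 and 5.93 log2 there. Its low-low SD was 0.89 (n = 3), and the other 9 muscles read 6.98 to 7.95 with a median of 7.73. Low-low replicate 3 alone lay below all other muscles. Vwf differed by -0.58 log2 (SE 0.30, adjusted p = 0.114, limma). Without low-low replicate 3 the difference was -0.07 log2, and without low-low replicate 2 it was -0.88 log2 with an adjusted p of 0.0396.

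Egfl7 (chromosome 3), the secreted EGF-like protein, was read by 2 probe sets. The one with the higher mean gave 8.80, 9.20 and 8.21 log2 in the low-low group, against 7.64 to 8.54 in the other 9 with a median of 8.38. The other gave 8.08, 8.15 and 7.59 log2, against 6.98 to 7.63 with a median of 7.34. In both probe sets low-low replicates 1 and 2 lay above all other muscles and replicate 3 did not. The first differed by 0.44 log2 (SE 0.20, adjusted p = 0.0759, limma), which did not pass. The mean of both did pass (0.53 log2, adjusted p = 0.0157), as did the first without low-low replicate 3 (0.71 log2, adjusted p = 0.0101).

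In 4 of the 9 markers (Esam, Eng, Tie1 and Nos3) all 3 low-low muscles were above all 9 others, and in none were all 3 below. Over all tested genes the shares were 24.3% above and 20.2% below. The low-low muscles also differed from each other in a common pattern. Replicate 2 had the highest value of the 3 in 7 of 9 markers, against 35.1% of all genes, and replicate 3 the lowest in 8 of 9, against 34.3%. Averaged over the 9 markers, the deviation from the mean of the other 9 muscles was 0.58, 0.94 and 0.18 log2 in low-low replicates 1, 2 and 3, and -0.24 to 0.19 in the others. The 3′ to 5′ index of these replicates was 1.28, 1.69 and 1.13, in the same order of rank as the marker mean. Their labelled weights ranked in that order too. Between groups the index went the other way, since the low-low muscles had the lower index and, on average, the higher marker mean. The ranks within the group are from 3 arrays, and no test was made of them.

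**Figure D2:**
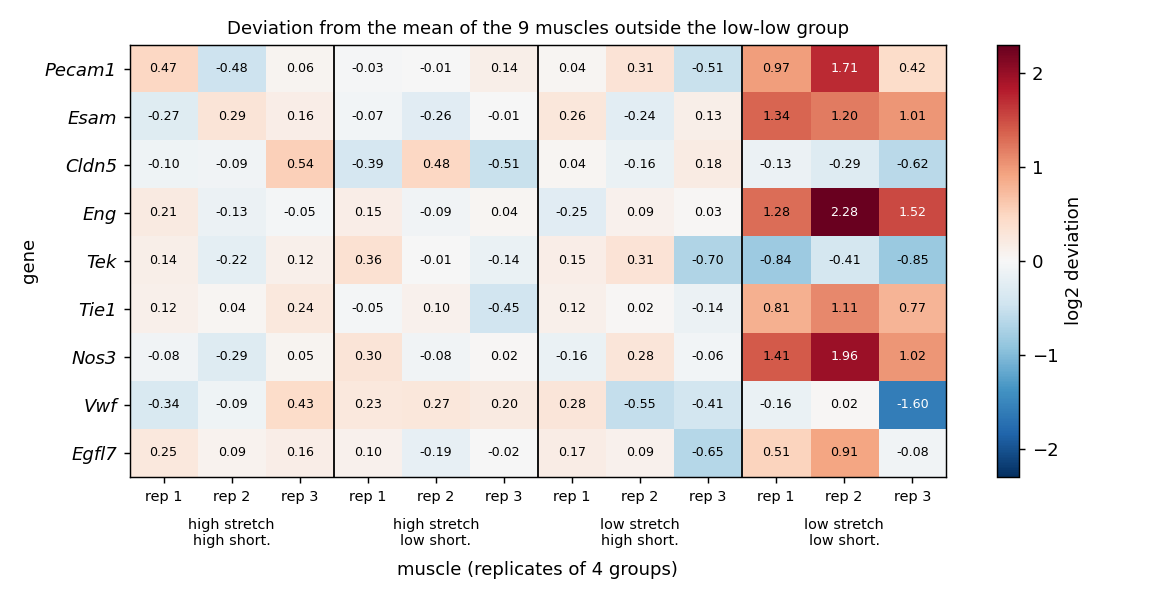
Deviation of each marker (rows) in each muscle (columns) from its mean over the 9 muscles outside the low-low group, in log2 units given by the colour scale and printed in each cell. Red cells are above that mean and blue cells below it. In low-low replicate 2 Eng lies 2.28 and Nos3 1.96 above the mean, while in low-low replicate 3 Vwf lies at -1.60.

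The factorial contrasts were read next. Those that include the low-low group share its 3 arrays, and so are not separate evidence. Mean stretch at low shortening (high stretch minus low) called 1 of 9 markers higher and 5 lower, where 49.9% of all genes passed. The 5 were Pecam1, Esam, Eng, Tie1 and Nos3, from -0.997 log2 in Pecam1 (SE 0.31, adjusted p = 0.0195) to -1.66 in Eng (SE 0.21, adjusted p = 5.24e-05), and Tek was the 1 higher at 0.77 log2 (SE 0.24, adjusted p = 0.0196). Cyclic shortening at low stretch called the same 5 lower and none higher, where 49.0% of all genes passed. Its differences ran from -0.90 log2 in Tie1 (SE 0.15) to -1.74 in Eng (SE 0.21, adjusted p = 3.97e-05), and Tek reached 0.62 log2 without passing (adjusted p = 0.0517).

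Averaged over the levels of the other input, 4 markers passed and Pecam1 and Tek did not. The main effect of stretch called Esam, Eng, Tie1 and Nos3 lower and none higher, at -0.45 log2 in Tie1 to -0.80 in Eng, where 35.2% of all genes passed. The main effect of shortening also called 4 lower, the same genes, at -0.32 in Tie1 to -0.88 in Eng, where 33.4% of all genes passed. The interaction, the stretch effect at high shortening minus that at low shortening, passed for the same 4 genes, where 33.9% of all genes passed. It was 1.71 log2 in Eng (SE 0.30, adjusted p = 0.00119), 1.30 in Esam (SE 0.24), 1.26 in Nos3 (SE 0.30) and 1.16 in Tie1 (SE 0.21), and did not pass in Pecam1 (1.07 log2, SE 0.45, adjusted p = 0.0839).

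Where the low-low group took no part, no marker passed. Mean stretch at high shortening, cyclic shortening at high stretch, and high stretch alone against high shortening alone each called 0 of 9 markers and 0% of all genes in limma. At an unadjusted p under 0.05 they gave 0 markers each and 346, 392 and 614 genes. The largest of these differences were 0.46 log2 in Vwf, for high stretch alone against high shortening alone, and 0.29 log2 in Egfl7, for stretch at high shortening. Across all 9 markers and these 3 comparisons the 95% intervals ran from -1.03 to 1.26 log2, so differences up to about those sizes were not detectable in the noisiest gene, Vwf. For Esam the interval of stretch at high shortening was -0.36 to 0.38 log2, and for Tie1 it was -0.20 to 0.46. These 2 genes had the narrowest intervals, and for Pecam1 it was -0.62 to 0.75. The levels of each marker in these 3 groups therefore have no order that the spread between muscles allows.

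**Figure D3:**
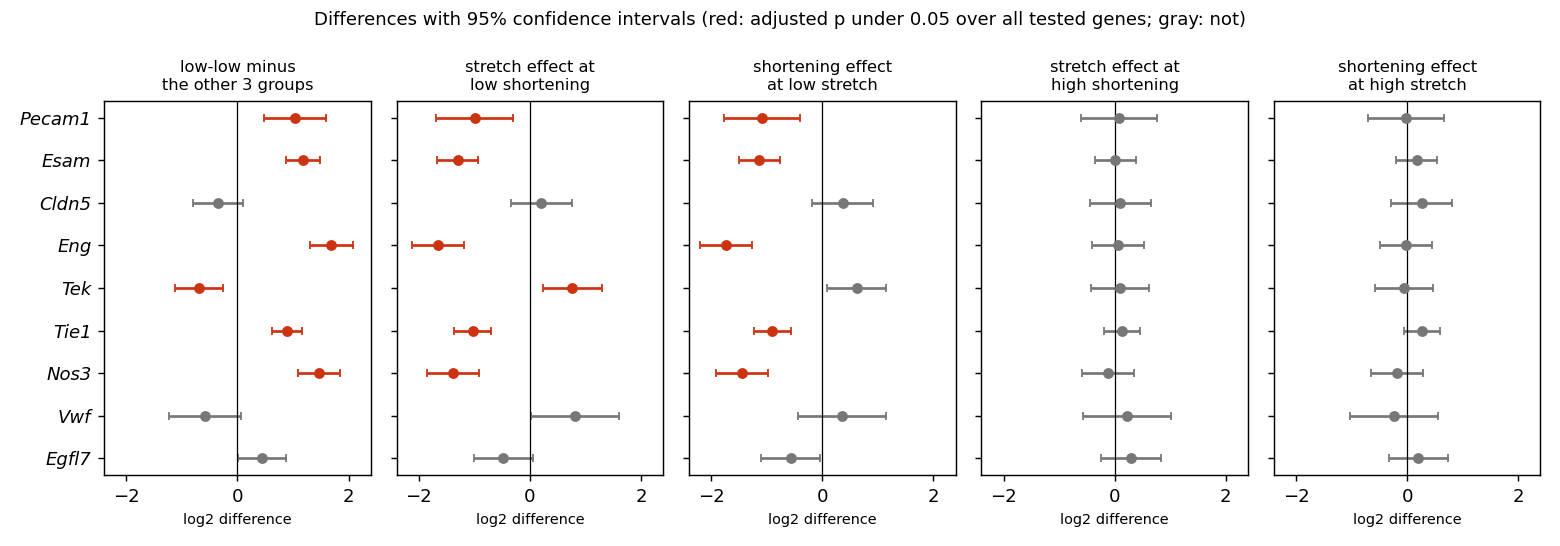
Log2 difference of each marker (rows) in 5 comparisons (panels), with 95% confidence intervals from limma. Red marks an adjusted p under 0.05 over 10316 genes and gray marks the rest. Stretch and shortening effects are high minus low, so Eng is at 1.69 in the first panel, at -1.66 and -1.74 in the next, and at 0.05 and -0.03 in the last 2, where no marker is red.

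To see whether the markers move together, Pearson's r was taken for all 36 pairs over the 9 muscles outside the low-low group. The low-low group was kept out because arrays that stand apart give any pair of shifted genes a high r. The median r of the 36 pairs was 0.106, against 0.00953 over all 53204770 pairs of tested genes. There were 21 pairs above 0, and r ran from -0.671 to 0.824. At r of 0.5 or more stood 6 pairs (16.7%), against 11.7% of all pairs. In exact two-sided permutation tests 4 pairs had an unadjusted p under 0.05 and 0 passed after Benjamini-Hochberg adjustment over the 36, with a smallest adjusted p of 0.366.

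The highest r was between Tek and Egfl7 (r = 0.824, exact permutation p = 0.0197, Spearman's rho = 0.667, n = 9). It was 0.496 without the 2 muscles farthest from the median of Tek. Pecam1 and Tek followed (r = 0.729, rho = 0.450), and gave 0.0917 without the 2 farthest in Pecam1, so that relation rests on those muscles. Replicate 3 with high shortening alone was the lowest of the 9 in all 3 of these genes, at 6.19 log2 in Pecam1, 8.25 in Tek and 7.64 in Egfl7. Cldn5 and Tie1 stood at 0.684. Esam had an r below 0 with 5 of the other 8 markers, at -0.671 for Pecam1, -0.670 for Eng, -0.495 for Nos3, -0.399 for Tek and -0.0773 for Egfl7. Against the mean of the other 8 markers, r ran from -0.353 in Esam to 0.712 in Tek. For comparison, the 2 probe sets of the same gene, Egfl7, gave r = 0.817 (exact permutation p = 0.000752, rho = 0.833, n = 9), and 0.807 without the 2 farthest.

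When each value was taken as its deviation from the mean of its own group, all 12 muscles could be used. The median r was then 0.443, against 0.00703 over all pairs, with 28 of 36 pairs above 0. At r of 0.5 or more stood 13 pairs (36.1%), against 10.9% of all pairs. Pecam1 and Egfl7 stood highest at 0.836. This larger value comes with the spread among the 3 low-low muscles described above, where replicate 2 was high and replicate 3 low in most markers. Genes measured in the same muscle share its array and normalization, so no p is given for these values.

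**Figure D4:**
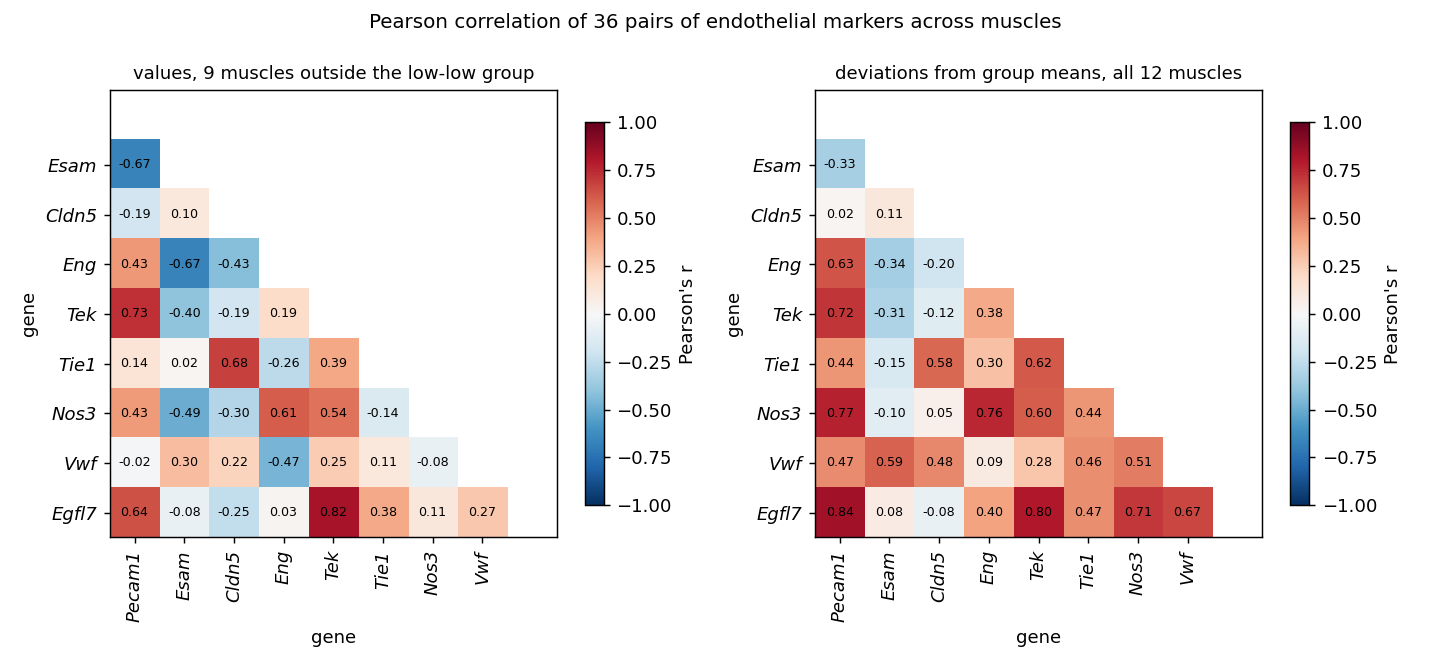
Pearson's r of each pair of markers (rows and columns), on a colour scale from -1 (blue) to 1 (red) with the value printed in each cell. The left panel uses log2 values of the 9 muscles outside the low-low group, where 21 of 36 pairs are above 0, and the right panel uses deviations from group means in all 12 muscles, where 28 of 36 are.

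Genes whose pattern over the 9 muscles was most like the mean of the markers were ranked by Pearson's r, each marker first centred on its own mean. Podxl, podocalyxin, a sialomucin of podocyte and endothelial surfaces, came first at r = 0.919 (rho = 0.833). Next were Nucb1 (0.904), a calcium-binding Golgi protein, Rps6ka2 (0.895), a ribosomal S6 kinase, and Epn1 (0.888), an endocytic adaptor. Zfp385a and Tacc1 (both 0.878), Ablim3 (0.877), Itgbl1 and Ppp2r5a (both 0.874) and Adcyap1r1 (0.873) completed the 10. They are the highest values over all tested genes and were picked for that, so no p is given, and over the 9 muscles Ppp2r5a spanned only 0.22 log2. None of the markers passed a relation with the 3′ to 5′ index in the same 9 muscles: the largest was Tie1 (r = -0.643, rho = -0.433, exact permutation p = 0.0777, adjusted p = 0.700 over 9 genes), at -0.261 without the 2 muscles farthest in the index.

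The other genes of the TIE and angiopoietin pathway were read in the low-low group against the other 3 groups, as were all lists that follow, where 29.4% of all genes were higher and 28.2% lower. Of 6 tested genes 1 was higher, 2 were lower and 3 did not pass. Angpt2, the ligand that opposes Angpt1 at Tek and is stored with Vwf, differed by -1.12 log2 (SE 0.33, adjusted p = 0.0122), from 7.15 to 7.29 on average in the other groups to 6.12 ± 0.64 (SD, n = 3). Ptprb, the endothelial phosphatase VE-PTP that acts on Tek and VE-cadherin, differed by -0.71 (SE 0.22, adjusted p = 0.0153). So Tek, Angpt2 and Ptprb were lower and Tie1 higher in the same muscles. Without low-low replicate 3, Angpt2 gave -0.84 (adjusted p = 0.0850) and Ptprb -0.65 (adjusted p = 0.0639), and Ptprb without low-low replicate 1 gave -0.58 (adjusted p = 0.0877), none of which passed. Grb14, an adaptor, was higher by 0.72 (SE 0.14). Angpt1, the main activating ligand of Tek, was below the filter and not tested, with means of 3.72 to 3.83 log2 outside the low-low group and 4.27 ± 0.11 (SD, n = 3) within it.

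Among VEGF receptors and ligands 3 of 10 were higher, 2 lower and 5 did not pass. Vegfa, the ligand that muscle cells make for capillary growth, was higher by 1.20 log2 (SE 0.14) and Vegfb by 0.85 (SE 0.14), and the 3 low-low muscles gave nearly equal Vegfa values (11.96 ± 0.009, SD). Vegfc, the ligand of lymphatic growth, was lower (-1.16 log2, SE 0.18). Of the receptors, Nrp2 was higher by 0.62 (SE 0.18). Kdr, the main signalling receptor of endothelium, was lower (-0.39, SE 0.15, adjusted p = 0.0416), a call that ended in 12 of 26 alternatives. It ended without any 1 of the 3 low-low arrays, 2 with both inputs high (replicates 2 and 3), 1 with high stretch alone (replicate 2) or 2 with high shortening alone (replicates 1 and 3), at -0.36 to -0.44 log2, and Kdr turned to 0.65 log2 with the index as a covariate. Flt1, the decoy receptor, did not pass (-0.02, SE 0.13, adjusted p = 0.911). Its signal was under the intensity cut of 50 (5.64 log2) on every array, with group means of 4.92 to 5.12 log2. A lack of change in Flt1 therefore cannot be read from it. Sh2d2a of this list was under the same cut on every array too.

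In the endoglin, ALK1 and BMP pathway 4 of 17 genes were higher and 9 lower, with a median of -0.34 log2, while the co-receptor Eng itself was higher. Id3, a transcriptional target of BMP signals, had means of 4.43 to 4.99 log2 in the other 3 groups, against 7.99 ± 0.14 (SD, n = 3) in the low-low muscles. Its mean outside the low-low group (4.78) was under the filter, so Id3 was tested only through the group where it was high. It differed by 3.20 log2, or by 3.01 with values under the filter raised to it. Id2, a related target, was lower (-1.54, SE 0.19), as were Smad5, which carries the signal (-1.43, SE 0.12), and the receptor Acvr2a (-0.85, SE 0.14). Acvrl1 (ALK1), the receptor that works with endoglin, was below the filter and not tested, at 4.62 to 4.71 log2 in the 4 groups.

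Of 26 tested junction partners and tight junction genes 7 were higher, 7 lower and 12 did not pass. Cdh2, N-cadherin, which cardiomyocytes also use, was higher by 1.27 log2 (SE 0.10), Cd99, a leukocyte passage molecule at endothelial contacts, by 1.30 (SE 0.12), and Mcam, shared by endothelium and pericytes, by 1.32 (SE 0.16). The catenins that bind cadherins differed little: Ctnnd1, p120, by 0.35 (SE 0.13) and Ctnnb1, beta-catenin, by -0.51 (SE 0.08). The call of Ctnnd1 ended without low-low replicate 2 (0.32 log2), low-low replicate 3 (0.23) or replicate 2 with high shortening alone (0.34). Ctnnb1 turned to 0.73 log2 with the mean of its probe sets, so its direction depends on the probe set.

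For partners of eNOS and nitric oxide signalling 5 of 17 were higher, 6 lower and 6 did not pass. Gucy1b1, Nostrin and Pde5a of this list were under the intensity cut of 50 on every array. Hsp90ab1, the beta form of the chaperone HSP90 that binds eNOS, was higher by 2.73 log2 (SE 0.09, adjusted p = 1.61e-09), at 13.23 ± 0.11 in the low-low group against 10.45 to 10.56 on average. Akt1, the kinase that activates eNOS, was higher by 1.06 (SE 0.13). Pts, an enzyme of the cofactor tetrahydrobiopterin, differed by 1.19, or by 1.09 with values under the filter raised to it. Its mean outside the low-low group (4.89) was just under the filter, so it was tested only through that group. Slc7a1, a carrier of arginine, the substrate, was lower (-0.66, SE 0.10). Cav1, the caveolar protein that holds eNOS inactive, gave 0.63 log2 and did not pass (SE 0.27, adjusted p = 0.0657). Over 26 alternatives Cav1 ran from -0.20 to 1.85 log2. It passed as higher in 6 of them, among these the mean of its probe sets, so its result depends on such choices.

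Of the genes of Weibel-Palade bodies and haemostasis 5 of 16 were higher, 3 lower and 8 did not pass. The adhesion molecules of activated endothelium were among the higher: Vcam1 by 1.87 log2 (SE 0.28) and Icam1 by 1.79 (SE 0.14), with Plat, tissue plasminogen activator, by 1.39 (SE 0.18). Procr, the endothelial protein C receptor, was lower (-1.29, SE 0.23). Icam1 and Vcam1 are made by other activated cells too.

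Endothelial transcription factors gave 5 higher, 5 lower and 14 not passing of 24. Foxc2 and Heyl among them were under the intensity cut of 50 on every array. Ets1, an ETS factor, was higher by 1.06 log2 (SE 0.14) and Epas1, HIF-2 alpha, by 0.49 (SE 0.10). Hey1, a Notch target, was lower (-1.33, SE 0.17, or -0.68 with values under the filter raised to it), as was Nfatc1, the factor of endocardium and valves (-0.93, SE 0.14). A list of 30 other endothelial markers gave 8 higher, 7 lower and 15 not passing, with a median of -0.18 log2, so its split was near that of all genes. Fabp4, the fatty acid-binding protein of capillaries and adipocytes, and Cd36, a fatty acid carrier of capillaries and muscle, led it. Cd36 was higher by 3.49 log2 (SE 0.16). Fabp4 had means of 3.81 to 3.93 log2 in the other 3 groups, under the filter, against 9.43 ± 0.54 (SD, n = 3) in the low-low muscles, so it too was tested only through the group where it was high. It differed by 5.58 log2, or by 4.52 with dim values raised to the filter. Of the higher genes in the 8 lists from the TIE pathway to these markers, Id3, Pts and Fabp4 were the 3 that passed the filter in this way, as did 46 of all 3032 higher genes. Ecscr, an endothelial surface regulator of migration, was higher by 1.84 (SE 0.18) and Ephb4, the receptor of venous endothelium, by 1.41 (SE 0.14). Among the genes of these 8 lists named above, the index as a covariate ended the calls of Angpt2, Ptprb, Kdr, Vegfb, Vegfc, Acvr2a, Cd99, Ctnnb1, Ctnnd1, Akt1, Slc7a1, Plat, Hey1, Nfatc1 and Epas1, and weight those of Grb14, Angpt2, Nrp2, Kdr, Ctnnd1, Slc7a1 and Procr.

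**Figure D5:**
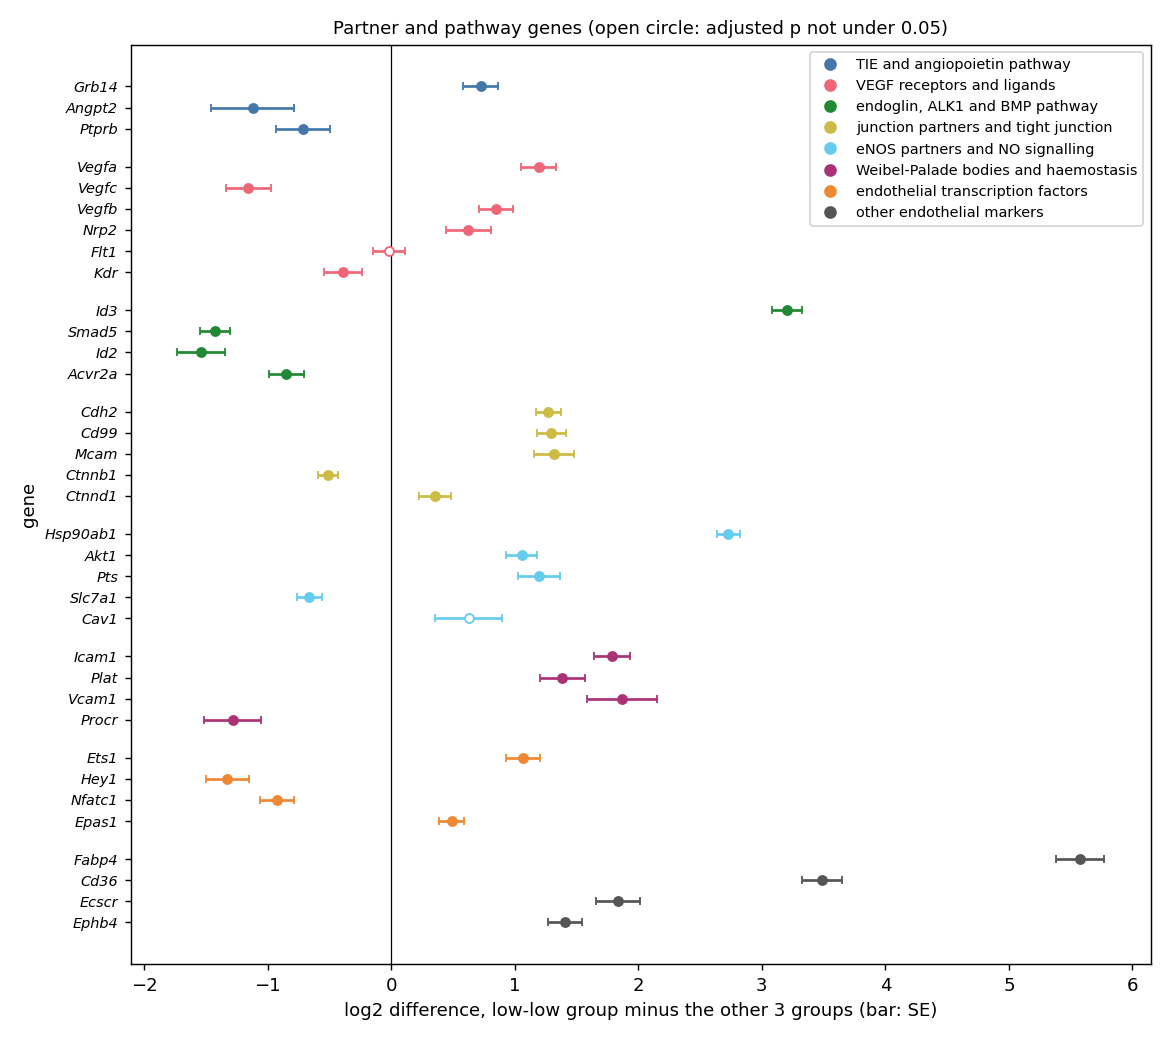
Log2 difference of the low-low group minus the other 3 groups (horizontal axis, bars are the SE) for partner and pathway genes named by a fixed rule, coloured by list, with open circles for an adjusted p not under 0.05. Most were picked for small p-values within their list, so they show the size of called genes and not the whole list. Fabp4 lies at 5.58, Cd36 at 3.49 and Id3 at 3.20, while Angpt2 and Vegfc lie at -1.12 and -1.16.

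Markers of the other cells that such a muscle holds were read in the same comparison, where 29.4% of all genes were higher and 28.2% lower. Cardiomyocyte markers were higher in 8 of 15 and lower in 2 (median 0.29 log2, Tnni3, cardiac troponin I, by 0.97). Fibroblast markers were higher in 3 of 11 and lower in 1, with a median of 0.13 log2. Col3a1 was higher by 2.52 and Col1a2 by 2.17, both fibrillar collagen chains, and Pdgfra, the fibroblast receptor, was at -0.55. Pericyte and smooth muscle markers were higher in 3 of 10 (median 0.28 log2, Smtn by 1.40). In the fibroblast list 7 genes did not pass, as did 7 in the pericyte and smooth muscle list. The higher shares of both lists were near that of all genes. Macrophage and leukocyte markers were higher in 5 of 12 and lower in 2 (median 0.25 log2, Cd74 by 1.59). Red cell markers were higher in 1 of 2 (Hbb by 0.93). Of the 5 higher macrophage and leukocyte genes, C1qb was tested only through the low-low group. Its mean outside that group (4.885 log2) was under the filter. Pdgfra did not pass without low-low replicate 1 (-0.47 log2, adjusted p = 0.106) or 3 (-0.58, adjusted p = 0.0561), nor Hbb without low-low replicate 1 (0.44, adjusted p = 0.222). The index as a covariate ended the calls of Pdgfra, Hbb and C1qb, and so did weight. Each also ended those of Mb of cardiomyocytes, Acta2 of smooth muscle and Adgre1 of macrophages, and the index that of Myl3 of cardiomyocytes. Tnni3, Col3a1, Col1a2, Smtn and Cd74 kept their calls with either covariate. Endocardial markers, of the endothelium that lines the chambers and covers the muscle, were lower in 3 of 6 and higher in 1 (median -0.64 log2). The lower genes were Nfatc1, Plvap (-0.70) and Cgnl1, and the higher was Gata4 (0.41), a gene not particular to endocardium. The call of Cgnl1 (adjusted p = 0.0423, limma) ended in 13 of 26 alternatives, among them those without any 1 low-low array. With the index as a covariate Nfatc1, Plvap, Cgnl1 and Gata4 did not pass, nor did Gata4 with weight or without low-low replicate 2. Lymphatic and platelet markers were each lower in 2 of 5. The lymphatic count was 1 without low-low replicate 1 or 3, where the lymphatic marker Reln gave -1.11 (adjusted p = 0.102) and -0.98 (adjusted p = 0.120), and 3 without low-low replicate 2. With weight as a covariate it was 0. Without low-low replicate 3 the platelet marker Treml1 did not pass (-0.31, adjusted p = 0.120), though 2 genes of its list still did, and with the index or weight as a covariate 0 did. Some genes stand in more than 1 list, such as Mcam, Nfatc1, Plvap and Angpt2. The mean log2 level of the listed genes was 13.05 to 13.13 in the low-low arrays for cardiomyocytes against 12.76 to 12.91 in the others, 9.03 to 9.22 against 8.41 to 8.89 for fibroblasts, 6.68 to 7.15 against 6.35 to 6.60 for pericytes and smooth muscle, and 7.37 to 7.80 against 7.07 to 7.39 for macrophages. It was 6.25 to 6.43 against 6.41 to 7.04 for endocardium. A few genes with large differences can move such a mean, so it is read beside the median of the list. Among the defining markers, Itgam of leukocytes, Itga2b of platelets and Slc4a1 of red cells were under the intensity cut of 50 on every array. Their part in the differences of the endothelial markers was not tested.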

How the data were processed

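Per the labels, 100 ng of total RNA per muscle was labelled with biotin and hybridised to Affymetrix expression arrays. The deposited values are log2 intensities. Their normalization was RMA, version not given, per the submitters' processing notes. A deposited filtered table holds 16391 of 31099 probe sets with the same log2 values. Of the probe sets, 20826 carried 1 symbol, and 436 several, which were not used. Each gene was taken as its brightest probe set past the filter (40th percentile of the mean over arrays, 4.91 log2). Group means over all 12 arrays were fitted by limma 3.58.1 (R 4.3.3), with Benjamini-Hochberg adjustment across 10316 genes. The fit and the permutation test were tested on simulated data. The members, gene lists, tests and alternatives were chosen with earlier results of these data known. Named genes were all members, up to 4 called genes of smallest p per list, 9 partners whatever their values, and the 10 genes most like the markers. Same-numbered arrays of different groups did not deviate together (18 pairs, r of -0.195 to 0.296), so they were taken as unpaired. Alternatives changed the filter, probe set rule, normalization, moderation, covariates, threshold and arrays. Promoters are from RefSeq (GRCr8), matched by gene number.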

Additional observations from a re-analysis of the deposited data

Results flagged for a closer look

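In 4 markers the effect of mean stretch differed between the levels of shortening, by the interaction term in limma with Benjamini-Hochberg adjustment over 10316 genes. Of all tested genes 33.9% passed the same term. It includes the low-low group, so it is not separate evidence from the low-low comparison. The stretch effect at high minus that at low shortening was 1.71 log2 in Eng (adjusted p = 0.00119), from 0.05 against -1.66. It was 1.30 in Esam (adjusted p = 0.00149), from 0.01 against -1.30, and 1.16 in Tie1 (adjusted p = 0.00147), from 0.13 against -1.03. In Nos3 it was 1.26 (adjusted p = 0.00708), from -0.13 against -1.38. Once the 3′ to 5′ index was a covariate, none of the 4 passed, at 1.87 log2 in Esam (adjusted p = 0.0674), 1.83 in Eng (0.159), 0.96 in Tie1 (0.285) and 1.33 in Nos3 (0.304). With animal weight as a covariate Eng (1.21 log2, adjusted p = 0.144), Tie1 (0.81, 0.165) and Nos3 (0.63, 0.435) did not pass.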

How the results depend on the processing

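Esam, Eng and Cldn5 kept their direction and their side of the threshold in all 26 alternatives of the low-low comparison. With any 1 array left out, the number of markers called was 6 to 7 for the low-low comparison, 4 to 5 for the stretch main effect, 3 to 5 for the shortening main effect, 4 to 6 for the interaction, 4 to 6 for stretch at low shortening, 5 to 6 for shortening at low stretch, and 0 for the comparisons without the low-low group. Adding the 3′ to 5′ index left 2 markers called in the low-low comparison (Esam and Eng), 1 in the stretch main effect, 0 in the interaction (limma; none of the 9 passed), 1 for stretch at low shortening and 2 for shortening at low stretch. It turned Vwf to 0.43 log2, Kdr to 0.65, the lymphatic marker Reln to 1.10, and the interactions of Cldn5 to 0.36 and Vwf to 0.80. Animal weight as a covariate left 2 called in the stretch main effect, 2 in the interaction, 2 for stretch at low shortening and 3 for shortening at low stretch, and turned Pecam1 to -0.15, Egfl7 to -0.24, Cav1 to -0.20, Flt1 to 0.29, and the interactions of Pecam1 to -0.57 and Egfl7 to -0.17. With weight, Esam, Eng, Tek and Nos3 still passed in the low-low comparison, and Pecam1 and Tie1 did not. Both covariates separate the low-low group from the others, so the cause was not tested. The share of all genes called with each covariate was not taken, so these counts are not read as particular to the markers. A minimum of 1.5-fold left 2 markers in the shortening main effect. The mean of probe sets turned Ctnnb1 to 0.73, and repeated quantile normalization turned Flt1 to 0.036. With 1 array left out, the interaction of Cldn5 ran from -0.32 to 0.20. The log2 difference of Flt1 in the low-low comparison ran from -0.0742 to 0.063. In the 8 endothelial lists the called genes numbered 3, 5, 13, 14, 11, 8, 10 and 15 in the order of the text, and 1, 2, 4, 5, 2, 4, 2 and 7 with the index as a covariate. Over all lists and alternatives 374 of 416 counts stayed within 1.5 times. The median r of the marker pairs was 0.175 by Spearman's rho, 0.443 by deviations over 12 arrays, and -0.0525 to 0.130 with 1 array left out. The replicate block, although the numbers do not pair the muscles, gave 7 markers in the low-low comparison by adding Egfl7 (0.44 log2, adjusted p = 0.0497), and 7 for shortening at low stretch.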
